A study of Mus musculus with 65 samples.

Results

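Lone YY1 sites are described here: the YY1 peaks of untreated LDB1-AID cells on chromosomes 1 to 19 and X that shared no base pair with a CTCF, RAD21 or LDB1 peak of the same untreated cells. There were 7425 such sites among 12816 YY1 peaks on these chromosomes, which was 57.9% (Wilson 95% interval 57.1 to 58.8). The sites were chosen by the peak calls of these 4 proteins, so their numbers and their distances to CTCF, RAD21 and LDB1 are a description and carry no test. The word lone refers only to called peaks within a 400 bp interval, and a site without a call is not shown to be free of the protein.

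The study profiled protein binding by chromatin immunoprecipitation and sequencing (ChIP-seq) in engineered derivatives of the mouse erythroblast line G1E-ER4, of which the LDB1-AID and SMC3-AID sublines are used here. The line descends from cells without GATA1 and carries a hormone-inducible GATA1. In the LDB1-AID subline LDB1 is fused to a degron, so that adding auxin leads to its degradation, and in the SMC3-AID subline the same holds for the cohesin subunit SMC3. The groups used were untreated LDB1-AID cells (YY1, CTCF, RAD21 and LDB1 ChIP), LDB1-AID cells given auxin for 4 h (LDB1 ChIP), and SMC3-AID cells either untreated or given auxin for 4 h (LDB1 and RAD21 ChIP). All of these cells carry a degron, and the labels name no hormone treatment and do not say whether a subline is 1 clone. The 5 LDB1-AID sets combine 2 replicates each and the 4 SMC3-AID sets combine 3 each. The authors had combined the replicates before deposit, so no value has a replicate error, no difference can be set against a spread between replicates, and the depth of sequencing is unknown.

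YY1 is a zinc-finger transcription factor found at active promoters and enhancers in most cell types, where it can activate or repress. It can form dimers and has been linked to contacts between enhancers and promoters. Cohesin, a ring whose subunits include RAD21 and SMC3, extrudes DNA loops and is halted where CTCF is bound. LDB1 does not bind DNA itself and reaches erythroid enhancers through a complex with TAL1 and GATA1. YY1, CTCF and LDB1 are therefore each tied to looping of DNA by different routes.

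YY1 peaks mostly lay outside the intervals of the 3 other proteins. RAD21 was the most frequent partner, at 3540 of the 12816 YY1 peaks (27.6%). CTCF was present at 2190 (17.1%) and LDB1 at 2192 (17.1%). Of the 5391 YY1 peaks removed by the rule, 1388 had CTCF and RAD21, 1222 had RAD21 alone, 1219 had LDB1 alone, 760 had RAD21 and LDB1, and 589 had CTCF alone. Combinations of CTCF with LDB1 were rare, with 43 peaks without RAD21 and 170 with it. The share of peaks without any of the other 3 proteins differed among the proteins. It was 61.5% for LDB1 (6593 of 10729), 57.9% for YY1, 49% for CTCF (26590 of 54223) and 9.45% for RAD21 (3132 of 33160). These shares depend on the sizes of the sets, and the YY1 and LDB1 sets were the smaller ones.

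**Figure D1:**
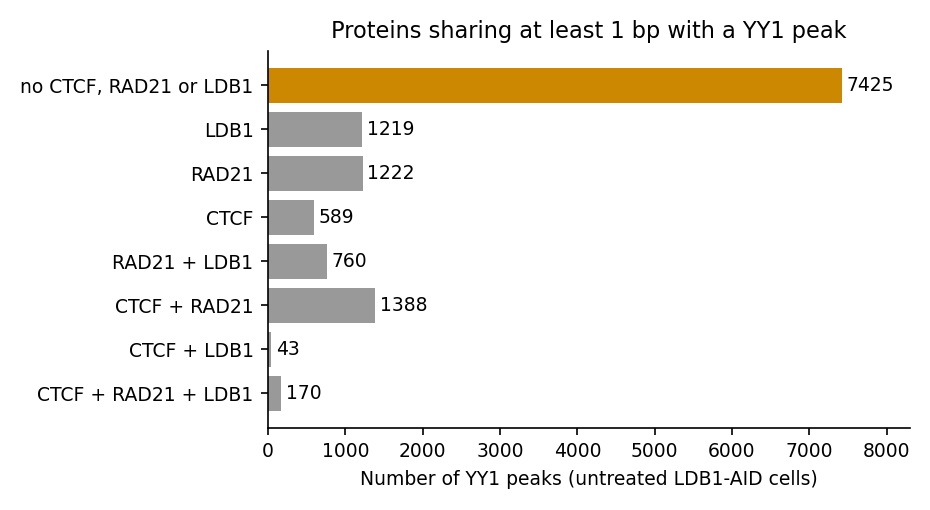
Number of YY1 peaks of untreated LDB1-AID cells on chromosomes 1 to 19 and X by the proteins that share at least 1 bp with them. The bar of 7425 lone sites is longer than all other bars, the next being CTCF with RAD21 at 1388.

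The boundary of the rule fell within a continuous range of distances. All peaks were 400 bp wide, so a shared base pair means that 2 midpoints lie less than 400 bp apart. Counted per 100 bp of midpoint distance, 1329 YY1 peaks had a RAD21 midpoint within 100 bp, 487 had one at 300 to 399 bp and 343 at 400 to 499 bp. For LDB1 the corresponding numbers were 940, 228 and 151. For CTCF they were 648, 443 and 275, a flatter profile below 400 bp. Its largest step between neighbouring bins fell at the limit of the rule, and the next bin held 279. Just inside the rule, 418 lone sites had an edge less than 100 bp from a CTCF, RAD21 or LDB1 peak, and just outside it 625 excluded YY1 peaks shared no more than 100 bp with any of them. In 3 lone sites the gap was 0 bp, and 4 excluded peaks shared exactly 1 bp. The gap of 0 was to LDB1 at the site on chromosome 3 (14879257 to 14879656, mm9), to CTCF on chromosome 13 (108209441 to 108209840), and to RAD21 on chromosome 15 (63480237 to 63480636). At the site on chromosome 15 an LDB1 peak followed after 48 bp, so this site was lone only by the width of the intervals. At the one on chromosome 13 the nearest RAD21 and LDB1 peaks were 41.3 and 82.4 kb away.

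**Figure D2:**
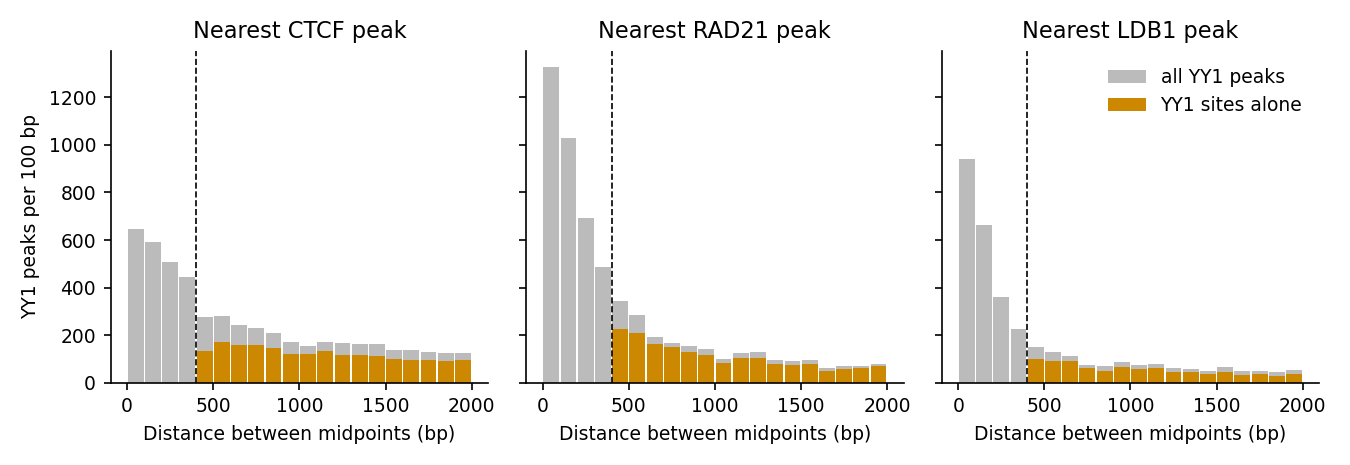
Number of YY1 peaks per 100 bp of distance between their midpoint and that of the nearest CTCF, RAD21 or LDB1 peak, for all YY1 peaks (grey) and for lone sites (orange). The dashed line at 400 bp is the limit of the rule. For RAD21 counts decline from 1329 in the first 100 bp to 487 before the line and 343 after it. For CTCF they step from 443 before the line to 275 after it, and the next bin holds 279.

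Most lone sites had another protein nearby. A CTCF, RAD21 or LDB1 peak lay within 400 bp of 1301 lone sites (17.5%), within 1 kb of 2352 (31.7%), within 5 kb of 4829 (65%) and within 25 kb of 6954 (93.7%). The median gap to the nearest of the 3 was 2.5 kb. CTCF was the nearest of the 3 at 3830 sites (51.6%), RAD21 at 2223 (29.9%) and LDB1 at 1343 (18.1%), with 29 ties. This order follows the sizes of the sets, with 54223 CTCF, 33160 RAD21 and 10729 LDB1 peaks.

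The gap to CTCF, the most abundant of the 3, had a median of 4.81 kb and quartiles of 1.49 and 12.5 kb. YY1 peaks with LDB1 alone had a median of 5.5 kb to CTCF, those with RAD21 alone 3.14 kb, and those with RAD21 and LDB1 6.66 kb. The peak calls that chose the lone sites also set these classes. Differences in distance to CTCF, RAD21 and LDB1 are therefore a description, and their intervals cover counting error only. A CTCF peak within 1 kb was present at 18.5% of lone sites and at 29.1% of the YY1 peaks with RAD21 alone, a difference of -10.5 points (Newcombe 95% interval -13.3 to -7.88). Against YY1 peaks with LDB1 alone, at 17.2%, the difference was 1.3 points (-1.08 to 3.51), an interval that includes 0. Within 25 kb CTCF was present at 89% of lone sites, and the differences from the classes with RAD21 alone and with LDB1 alone, -1.36 points (-3.06 to 0.554) and -0.434 points (-2.2 to 1.54), had intervals that include 0. At that distance lone sites exceeded YY1 peaks with RAD21 and LDB1, at 83.2%, by 5.83 points (3.23 to 8.73). CTCF peaks next to lone sites carried cohesin about as often as CTCF peaks at large. The nearest CTCF peak had RAD21 at 49% of lone sites, against 49.5% of all CTCF peaks.

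For RAD21, the cohesin subunit, the median gap was 7.51 kb, with quartiles of 1.79 and 19 kb. With the smaller RAD21 set of untreated SMC3-AID cells it was 20.7 kb. In LDB1-AID cells it was 6.98 kb from YY1 peaks with LDB1 alone and 5.26 kb from those with CTCF alone. A RAD21 peak lay within 25 kb of 82.2% of lone sites, 87.6% of YY1 peaks with LDB1 alone and 88.6% of those with CTCF alone. The differences were -5.44 points (-7.39 to -3.3) and -6.46 points (-8.94 to -3.51). Within 1 kb the share was 18.5% for lone sites, 15.4% with LDB1 alone and 29.9% with CTCF alone. Lone sites were thus higher than YY1 peaks with LDB1 alone at this distance, by 3.04 points (0.737 to 5.16), the opposite sign to that at 25 kb. Against those with CTCF alone the difference was -11.4 points (-15.3 to -7.75). The nearest RAD21 peak had no CTCF at 1786 lone sites (24.1%, 23.1 to 25), against 19.1% (18.7 to 19.5) of all RAD21 peaks. The share was higher at short range. Of the 1371 lone sites with RAD21 within 1 kb, 676 (49.3%, 46.7 to 52) had a RAD21 peak without CTCF as the nearest. Part of this difference can follow from the rule, since a site with CTCF in its interval was no longer lone.

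LDB1, the erythroid cofactor, lay farthest away and also had the smallest set of the 3, with 10729 peaks against 54223 for CTCF. The median gap was 27.8 kb, with quartiles of 6.28 and 87.6 kb, and 1650 lone sites (22.2%) had no LDB1 peak within 100 kb. An LDB1 peak was within 25 kb of 47.5% of lone sites. The share was 47.2% for YY1 peaks with CTCF and RAD21, 45% for those with CTCF alone and 58.4% for those with RAD21 alone. Lone sites differed from the last class by -10.9 points (-13.8 to -7.88), while the differences from the other 2 classes were 0.352 points (-2.51 to 3.2) and 2.55 points (-1.64 to 6.68). Within 1 kb, LDB1 was at 9.04% of lone sites and 8.59% of YY1 peaks with RAD21 alone, so the lower share of lone sites was seen at 25 kb and not at short range.

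The surroundings of lone sites fell into a few patterns. Within 25 kb, 3069 sites (41.3%) had peaks of all 3 proteins and 2786 (37.5%) had CTCF and RAD21 but no LDB1. LDB1 with neither CTCF nor RAD21 was found at 101 sites (1.36%), and none of the 3 at 471 (6.34%). On average 3.26 CTCF, 2.14 RAD21 and 0.874 LDB1 peaks lay within 25 kb of a lone site. Around the other YY1 peaks, which include the overlapping peaks themselves, the means were 3.58, 2.96 and 1.53. Over 100 kb the mean number of CTCF peaks was 11.6 for lone sites and 11.7 for other YY1 peaks, while that of RAD21 peaks was 7.36 against 8.53 and that of LDB1 peaks 2.56 against 3.65.

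**Figure D3:**
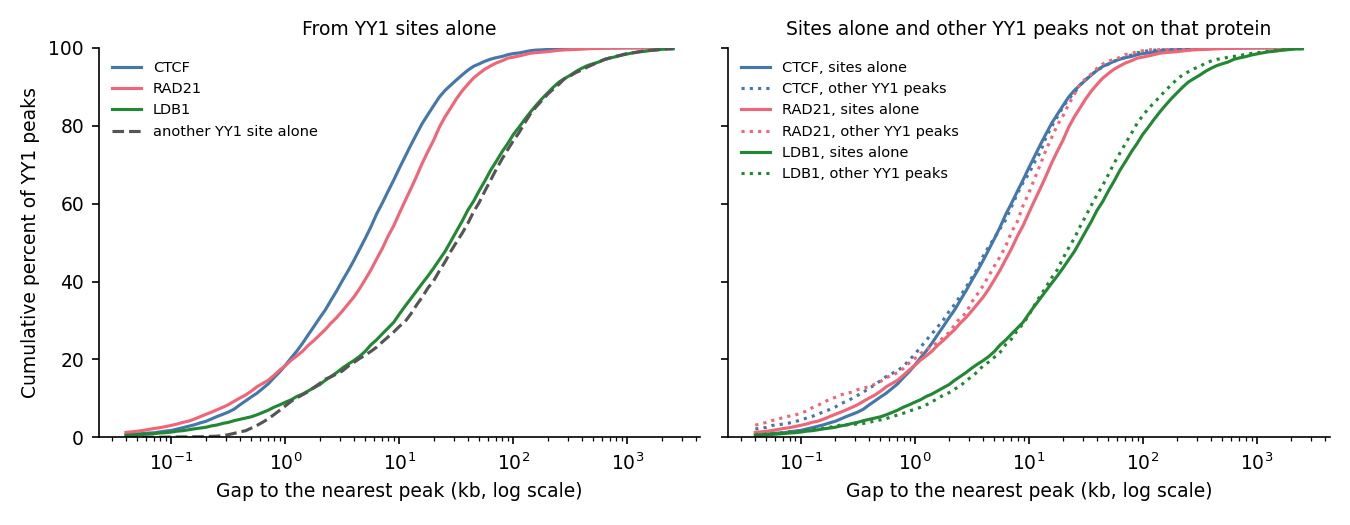
Cumulative percent of YY1 peaks by the gap to the nearest peak, in kb on a log scale. Left, lone sites to CTCF, RAD21, LDB1 and another lone site, with medians of 4.81, 7.51, 27.8 and 31.5 kb. Right, lone sites (solid) and the other YY1 peaks that share no base pair with the protein in question (dotted; 3201 peaks for CTCF, 1851 for RAD21 and 3199 for LDB1).

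Lone sites and other YY1 peaks differed little in their gap to the next YY1 peak, and the sign of the difference changed with distance. The nearest YY1 peak of any kind had a median gap of 14.9 kb for lone sites (quartiles 2.73 and 48.5 kb) and 13.8 kb for other YY1 peaks (quartiles 3.1 and 39.8 kb). Another YY1 peak lay within 1 kb of 13.1% of lone sites and 11.6% of other YY1 peaks, and within 5 kb of 31.7% of both. One lay within 25 kb of 61.3% (60.1 to 62.4) of lone sites and of 64.1% (62.8 to 65.3) of other YY1 peaks. That neighbour was itself a lone site in 59.1% (57.9 to 60.2) of cases, close to the 57.9% of lone sites among all YY1 peaks. Counting only lone sites, the median gap was 31.5 kb, and 3339 sites (45%) had another within 25 kb. This share was 28.5% within 10 kb and 76.2% within 100 kb. A second lone site within 1 kb was present at 602 sites (8.11%).

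Chained by gaps of up to 25 kb, 4086 lone sites stood by themselves, 939 chains held 2 sites, 347 held 3 or 4 and 57 held 5 or more. These 57 chains contained 345 sites (4.65%). The chain with the most lone sites held 13 in 49.5 kb on chromosome 2 (174118941 to 174168465), together with 2 other YY1, 9 CTCF, 7 RAD21 and 2 LDB1 peaks. Both chains of 9 lone sites also lay among CTCF peaks. The one on chromosome 17 (34027107 to 34115710, 88.6 kb) held 3 other YY1, 14 CTCF, 10 RAD21 and 1 LDB1 peaks. The one on chromosome 19 (8797812 to 8912093, 114 kb) held 1 other YY1, 15 CTCF, 3 RAD21 and 1 LDB1 peaks. Among the 31 lone sites in these chains, 1 shared base pairs with an LDB1 peak called after auxin in LDB1-AID cells, the first site on chromosome 19, and 0 with any SMC3-AID peak. No peak was assigned to a gene, exon or intron, because the gene table at hand is of another genome build.

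At the other extreme, 60 lone sites (0.808%) had no peak of any of the 4 untreated LDB1-AID sets within 100 kb. The most isolated lay on chromosome 1 (104524559 to 104524958), with the nearest CTCF peak 1156 kb, RAD21 2358 kb and both the nearest LDB1 and the nearest other YY1 peak 2448 kb away. This same site shared 396 of its 400 bp with an LDB1 peak called after auxin in LDB1-AID cells. The next were on chromosome 14 (85773187 to 85773586), 932 kb from any peak, and on chromosome 18 (51924137 to 51924536), 584 kb from any peak. Neither of these shared a base pair with a peak of the other 5 sets.

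Sets that the rule did not use were examined next, to ask whether LDB1 or cohesin was called at lone sites in other conditions or in the other subline. Of the 7425 lone sites, 7256 (97.7%) shared no base pair with any of these 5 sets. The other 169 sites are described below. Over all 12816 YY1 peaks, the share on a single set ran from 0.0234% to 13.4%, so most YY1 peaks of any kind lacked each set. The share of all YY1 peaks on none of the 5 was not counted, so the 97.7% has no like value beside it. The sets map the same proteins as the rule did, so a low share at lone sites follows in part from their choice. No test is given, and differences carry Newcombe 95% intervals that cover counting error only.

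LDB1 peaks called in LDB1-AID cells after 4 h of auxin were found at 63 lone sites, which was 0.848% (0.664 to 1.08). Over all YY1 peaks the share was 3.87%. Among YY1 peaks that also lacked LDB1 in untreated cells, it was 2.21% with RAD21 alone (27 of 1222), 1.53% with CTCF alone (9 of 589) and 1.08% with CTCF and RAD21 (15 of 1388). Lone sites were lower than the class with RAD21 alone by -1.36 points (-2.36 to -0.635), and the intervals for the other classes included 0 (-2.04 to 0.08 and -0.951 to 0.253 points). Of the YY1 peaks with LDB1 alone before auxin, 10.5% (128 of 1219) still had an LDB1 peak. The share was 27.4% with RAD21 and LDB1, 18.6% with CTCF and LDB1, and 22.4% with CTCF, RAD21 and LDB1.

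Most of these 63 sites were far from the LDB1 peaks of untreated cells, as lone sites were in general. The median gap to the nearest untreated LDB1 peak was 32.2 kb, against 27.8 kb for the remaining lone sites. Of the 63, 12 lay within 400 bp of one, 46 lay more than 5 kb away and 33 more than 25 kb away. The 46 were 73% (61 to 82.4) of the 63. In the classes without LDB1, 19 of 27 such peaks with RAD21 alone, 8 of 9 with CTCF alone and 9 of 15 with CTCF and RAD21 were likewise more than 5 kb away. The peaks shared a median of 205 of 400 bp (quartiles 116 and 311), and 32 of 63 shared at least 200 bp. CTCF was within 25 kb of 60 of the 63 (95.2%, 86.9 to 98.4), against 88.9% of the remaining lone sites, and RAD21 within 25 kb of 56 (88.9%, 78.8 to 94.5), against 82.1%. An LDB1 peak of SMC3-AID cells, untreated or treated, was shared by 8 of the 63 and by 1 of the 46 distant ones.

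Seen from the LDB1 peaks that auxin-treated LDB1-AID cells had, 836 of 1043 shared base pairs with an untreated LDB1 peak and 207 did not. Of these 207, 54 (26.1%, 20.6 to 32.5) lay on a lone YY1 site, 48 on another YY1 peak and 105 on none. Lone sites were thus 54 of the 102 with a YY1 peak. The 57.9% of lone sites among all YY1 peaks is not a like share. It counts 2192 YY1 peaks with untreated LDB1, and without them the share of lone sites would be higher. Any YY1 peak was thus present at 49.3% (42.5 to 56) of the LDB1 peaks called only after auxin and at 47.2% (43.9 to 50.6) of those also called before it. RAD21 was at 34.8% (28.6 to 41.5) of the former and 59.7% (56.3 to 63) of the latter. With more than 5 kb to any untreated LDB1 peak, 46 of 164 (28%) lay on a lone YY1 site. A further 35 lay on another YY1 peak.

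LDB1 of untreated SMC3-AID cells, in which the degron is on SMC3, was found at 61 lone sites (0.822%, 0.64 to 1.05), against 13.4% of all YY1 peaks. YY1 peaks with LDB1 in LDB1-AID cells had it at 71%, and with RAD21 as well at 81.3%. The classes without LDB1 gave 1.64% with RAD21 alone, 0.34% with CTCF alone and 0.36% with CTCF and RAD21. Lone sites differed from the class with RAD21 alone by -0.815 points (-1.71 to -0.195), and from that with CTCF alone by 0.482 points (-0.426 to 0.821). In contrast to the sites with LDB1 after auxin, most of these were close to an LDB1 peak of LDB1-AID cells. The median gap was 0.22 kb, and 33 of 61 were within 400 bp. Within 1 kb were 36 of the 61, against 15 of the 63 sites with LDB1 in auxin-treated LDB1-AID cells. A limit to lone sites over 1 kb from any CTCF, RAD21 or LDB1 peak was chosen after the data were seen. It removes more of the 61 than of the 63 by construction. It left 19 of 5073 (0.375%) with LDB1 in untreated SMC3-AID cells and 34 (0.67%) with LDB1 in auxin-treated LDB1-AID cells.

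After 4 h of auxin in SMC3-AID cells, LDB1 was found at 47 lone sites (0.633%, 0.476 to 0.841), against 12.3% of all YY1 peaks. Of the 61 lone sites with LDB1 in untreated SMC3-AID cells, 35 also had it after auxin, which was 57.4% (44.9 to 69). A further 26 had it only before and 12 only after. With a gap of up to 1 kb counted as shared, this share was 34.4%. Of the 20 such YY1 peaks with RAD21 alone, 10 also had LDB1 after auxin. The share was 86.4% (83.9 to 88.5) of the 865 such YY1 peaks with LDB1 alone and 93.2% (90.9 to 94.9) of the 618 with RAD21 and LDB1. Those classes were chosen by an LDB1 call, and lone sites by the lack of one. Of all 8585 LDB1 peaks of untreated SMC3-AID cells, 78.2% were also called after auxin. That value counts LDB1 peaks, whereas at lone sites the YY1 peak had to share base pairs with both LDB1 sets, so the measures differ. Peaks shared a median of 226 bp with lone sites and 288 bp with other YY1 peaks in untreated SMC3-AID cells. Whether this smaller overlap has a part in the lower share after auxin was not tested.

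RAD21 of untreated SMC3-AID cells was found at 46 lone sites (0.62%, 0.465 to 0.825), against 8% of all YY1 peaks. The share was 1.97% of YY1 peaks with LDB1 alone, 7.94% with RAD21 alone, 7.98% with CTCF alone and 46% with CTCF and RAD21. Lone sites were lower than YY1 peaks with LDB1 alone, which equally lacked CTCF and RAD21 in LDB1-AID cells, by -1.35 points (-2.31 to -0.675). All 46 lay within 1.41 kb of a RAD21 peak of LDB1-AID cells, 44 of them within 1 kb and 34 within 400 bp. Among the 5073 lone sites more than 1 kb from any CTCF, RAD21 or LDB1 peak the number was 0. That limit, chosen after the data were seen, removed the 44 by construction, so the 0 is no separate result.

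Auxin-treated SMC3-AID cells had only 24 RAD21 peaks on these chromosomes. They shared base pairs with 3 of the 12816 YY1 peaks (0.0234%), of which 1 was a lone site (0.0135% of lone sites). This lone site lay on chromosome 15 (99533035 to 99533434) and shared 140 bp with its RAD21 peak. It had CTCF 0.412 kb and RAD21 of LDB1-AID cells 11.9 kb away. Sites on several SMC3-AID sets were few. LDB1 before auxin, LDB1 after auxin and RAD21 before auxin were all present at 4 lone sites, on chromosomes 13 (45944629 to 45945028), 15 (62054789 to 62055188), 18 (75650001 to 75650400) and 19 (11687709 to 11688108). In LDB1-AID cells the nearest LDB1 peak lay 206, 102, 268 and 163 bp from them and the nearest RAD21 peak 210, 144, 371 and 608 bp. The last 2 also shared 186 and 224 bp with an LDB1 peak of auxin-treated LDB1-AID cells.

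**Figure D4:**
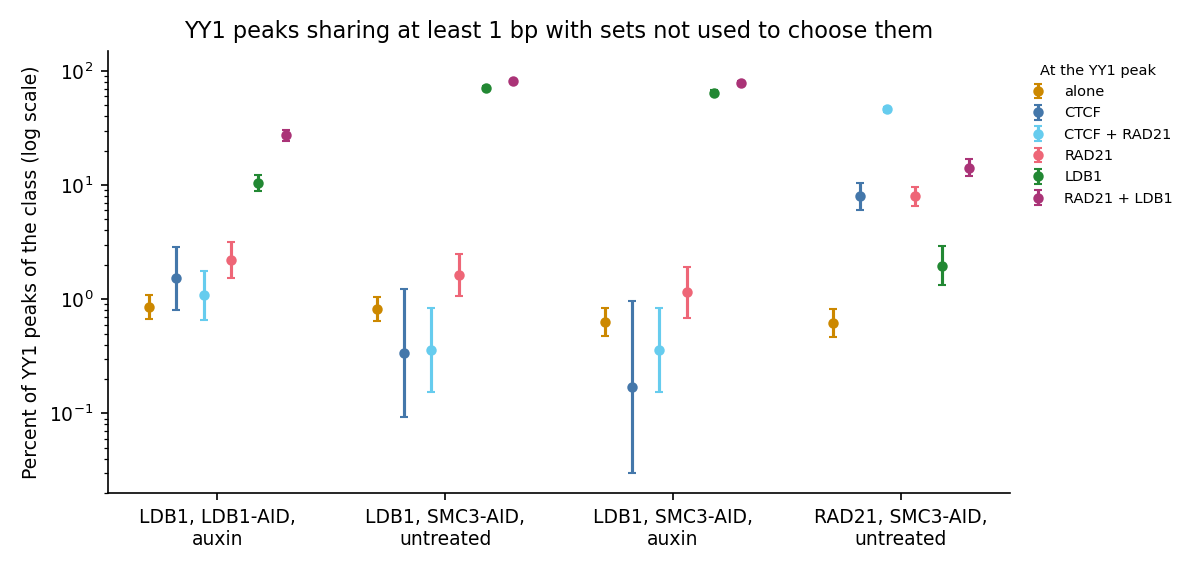
Percent of YY1 peaks, on a log scale, that share at least 1 bp with each of 4 sets not used to choose the lone sites, by the proteins at the YY1 peak in untreated LDB1-AID cells. Points are shares and bars Wilson 95% intervals. The combinations with CTCF and LDB1 together (43 and 170 peaks) and the auxin SMC3-AID RAD21 set (1 lone site) are not drawn. Lone sites lie between 0.62% and 0.848% in all 4 sets, below the classes with LDB1 in each LDB1 set.

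Chromosome X stood apart from the autosomes. Of its 226 YY1 peaks, 158 were lone, which was 69.9% (63.6 to 75.5), against 57.7% (56.9 to 58.6) on the autosomes, a difference of 12.2 points (5.86 to 17.9). Among the autosomes the share ran from 53.4% on chromosome 3 to 60.9% on chromosome 16. YY1 peaks on X carried LDB1 in 8.41% of cases against 17.3% on the autosomes, RAD21 in 19.9% against 27.8%, and CTCF in 14.6% against 17.1%. Other peaks were also farther from lone sites on X. The median gap there was 8.4 kb to CTCF, 16.4 kb to RAD21 and 101 kb to LDB1, against 4.75, 7.4 and 27.3 kb on the autosomes. None of the 3 proteins lay within 25 kb of 17.1% (12 to 23.7) of lone sites on X and of 6.11% (5.58 to 6.68) of those on the autosomes. X was singled out after its values were seen, and the part of peak density in this difference was not tested.

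**Figure D5:**
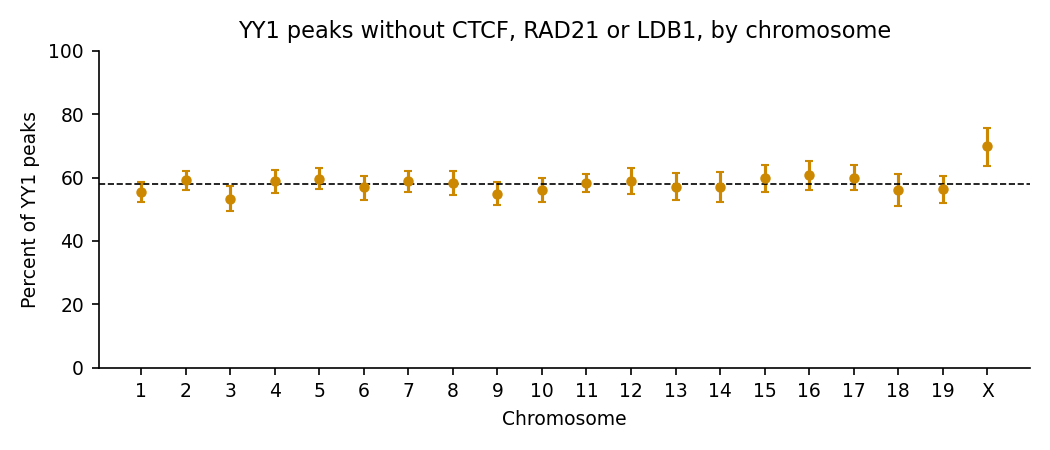
Percent of the YY1 peaks of each chromosome that were lone, with Wilson 95% intervals. The dashed line is the 57.9% over all chromosomes. The 19 autosomes lie between 53.4% and 60.9% and X at 69.9%.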

How the data were processed

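The deposited data are 9 lists of peaks, which give the chromosome and both ends of each peak in bp and hold no score or signal. Bowtie2, MACS2 2.2.9.1, deepTools 3.5.1 and the build mm9 are named, with no role or order, per the submitters' processing notes. The rule that made the consensus, its thresholds and filters are not given in the sources used here. Per the labels, 22 of the 65 samples stand behind the lists, and the other 43 were not analysed here. Nothing says whether replicates were separate cultures.

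Positions were counted from 1 in mm9. A peak was shared with at least 1 bp in common. Gaps run between peak edges. Intervals are Wilson or Newcombe 95% intervals and cover counting error only, since peaks are not replicates. Python 3.11.15 with numpy 2.4.6 and scipy 1.17.1 was used. Gap functions were tested on simulated data, and bedtools 2.31.1 also gave 7425 sites. No sequence was read, as no mm9 genome was used here.

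The sites and comparisons were chosen with earlier results of these data known. Named positions are the 3 chains with the most sites, the 3 most isolated sites, the 3 nearest to another protein, those on 3 SMC3-AID sets and any on RAD21 after auxin.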

Additional observations from a re-analysis of the deposited data

Results flagged for a closer look

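Of the 17 YY1 peaks outside chromosomes 1 to 19 and X, which entered no comparison, 7 shared no base pair with a CTCF, RAD21 or LDB1 peak of untreated LDB1-AID cells. They are given because they lie outside the chromosomes compared. Their share was 41.2% (Wilson 95% interval 21.6 to 64), not above the 57.9% on chromosomes 1 to 19 and X. They lay on unlocalised or unplaced contigs, and 0 of the 3 mitochondrial YY1 peaks was among them.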

How the results depend on the processing

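Of 47 alternative values for 11 results, 27 stayed within 1.5 times of a count or within the 95% interval of a share or median. The number of lone sites ran from 5073 with a gap of up to 1 kb counted as shared to 8977 with at least 50% of both peaks. With at least 50% of both peaks, lone sites with a peak of SMC3-AID cells numbered 101 for LDB1 before auxin, 82 for LDB1 after it and 72 for RAD21 before it. With a gap of up to 1 kb these were 32, 15 and 6, and 34.4% of the 32 also had LDB1 after auxin. Limited to sites over 1 kb from any other protein, a choice made after the data were seen, they were 19, 10 and 0, and 34 had LDB1 in auxin-treated LDB1-AID cells. This limit removes sites near LDB1 and RAD21 peaks by construction. The share with another lone site nearby was 28.5% within 10 kb, 76.2% within 100 kb and 40.4% with sites within 1 kb merged first. Between midpoints the median distance was 5.21 kb to CTCF and 7.91 kb to RAD21, by construction. With the smaller untreated SMC3-AID sets it was 20.7 kb to RAD21 and 38.9 kb to LDB1. On X, the share of lone sites was 79.6% with at least 50% of both peaks and 58.8% with a gap of up to 1 kb, against 69.9% and 39.2% on the autosomes. Leaving out chromosome 9 below 3.1 Mb could change no count, since 0 lone sites lie there, so these runs are among the 27 by construction. Runs on autosomes only kept 7267 of the 7425 lone sites, which left little room for change, and they are also among the 27. Depth and peak height are unknown. No paired analysis was possible because each set combines the replicates of its group and no result comes from a test.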
